A study of Mus musculus with 24 samples.

Results

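The enzymes that make bile acids from cholesterol were followed in 24 mouse liver samples by RNA sequencing. The set holds 10 genes, chosen by name as the enzymes of ring modification, side chain shortening and conjugation: Cyp7a1, Hsd3b7, Cyp8b1, Akr1d1, Cyp27a1, Cyp7b1, Cyp2c70, Amacr, Slc27a5 and Baat. Each was found on 1 of the 14293 rows of the expression table, and all 10 were among the 11562 genes that had at least 0.5 FPKM in at least 8 samples and were tested. The samples are livers with non-alcoholic steatohepatitis (NASH) in 3 groups of 8, treated with vutiglabridin, which the series title calls a paraoxonase-2 agonist, with semaglutide, an agonist of the receptor for glucagon-like peptide, or with vehicle. All 3 groups carry the NASH liver label, so there is no healthy group. The way NASH was induced, the strain, sex, age, diet, dose, length of treatment and time of day at collection are not given in the labels used here. Whether each sample is a separate mouse is not stated either, so the spread behind every p-value may be partly technical.

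Bile acids are made in hepatocytes by several connected routes. In the classic route Cyp7a1, the rate-limiting enzyme, hydroxylates cholesterol first, and Hsd3b7, Cyp8b1 and Akr1d1 then change the sterol rings. In the alternative route Cyp27a1 oxidizes the side chain first and Cyp7b1 hydroxylates the resulting oxysterol. Bile acids that return to the liver activate the receptor FXR, encoded by Nr1h4, which induces the repressor SHP, encoded by Nr0b2, and a fibroblast growth factor from the gut adds to the repression of Cyp7a1 through the receptor Fgfr4 with its partner Klb. The nuclear receptors HNF4A and NR5A2 are known activators of several of these promoters.

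The promoters show which letters known for these regulators lie just upstream of the enzymes. The RefSeq promoter table of GRCm38.p6 held windows, from 250 bases before to 50 after the start site, for 5 of the 10 genes. Both strands were searched for the NR5A2 motif CAAGGNCA, the HNF4A motif CAAAGNNCA, the FXR inverted repeat GTCANTGAC, the D-box TTATGNAA, which clock output factors such as DBP bind, and the STAT5 motif TTCNNNGAA, the factor downstream of growth hormone. Of all 32851 windows in the table, 6.71% held the NR5A2 motif, 6.36% the HNF4A motif, 0.387% the FXR repeat, 3.38% the D-box and 8.3% the STAT5 motif. Below are bases from the 150 upstream of the RefSeq start that both RefSeq and GENCODE place outside the gene, 5′ to 3′ in the gene's sense, with matches in capitals. Cyp27a1, Akr1d1, Cyp2c70 and Hsd3b7 are shown because their RNA differed between groups and their window held a match. Cyp8b1, which did not pass the test, was added after its values were seen because its NR5A2 and HNF4A matches share letters.
Cyp8b1 (chr9:121916306-121916455, minus strand): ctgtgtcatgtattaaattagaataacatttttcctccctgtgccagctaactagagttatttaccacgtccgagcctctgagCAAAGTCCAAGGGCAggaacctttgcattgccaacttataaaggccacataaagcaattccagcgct
Cyp2c70 (chr19:40187334-40187436, minus strand): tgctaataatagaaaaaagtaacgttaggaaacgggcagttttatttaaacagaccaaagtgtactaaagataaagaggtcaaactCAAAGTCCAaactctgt
Hsd3b7 (chr7:127800459-127800603, plus strand): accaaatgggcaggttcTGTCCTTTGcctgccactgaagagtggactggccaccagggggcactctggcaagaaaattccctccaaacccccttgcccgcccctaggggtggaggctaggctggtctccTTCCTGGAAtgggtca
Cyp27a1 (chr1:74713385-74713534, plus strand): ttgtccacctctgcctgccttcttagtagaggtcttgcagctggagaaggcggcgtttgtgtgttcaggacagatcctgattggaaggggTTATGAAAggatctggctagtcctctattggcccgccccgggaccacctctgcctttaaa
Akr1d1 (chr6:37530023-37530172, plus strand): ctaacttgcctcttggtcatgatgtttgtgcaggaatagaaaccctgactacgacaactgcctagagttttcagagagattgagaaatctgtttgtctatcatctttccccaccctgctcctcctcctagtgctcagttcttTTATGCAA
In the Cyp8b1 line an HNF4A match from position -67 to -59 runs into an NR5A2 match from position -60 to -53, counted back from the RefSeq start site, and a second HNF4A match lies from -242 to -234, upstream of the letters shown. Cyp2c70 holds the same HNF4A letters from -64 to -56. RefSeq and GENCODE place the starts of Cyp2c70, Hsd3b7 and Cyp27a1 at different bases, and the Cyp2c70 and Hsd3b7 lines end at the GENCODE start, before the RefSeq one. In the Hsd3b7 line an HNF4A match on the opposite strand stands from -133 to -125 and a STAT5 match from -21 to -13. Cyp27a1 has a D-box match from -60 to -53, and Akr1d1 has one in the last bases before its start, from -8 to -1. No window of the 5 held the FXR repeat. These are matches of letters in short windows, and binding was not measured.

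RNA levels of the 10 enzymes spanned a wide range in these livers. FPKM corrects fragments for the length of the transcript and for library size, so levels can be set side by side between genes. In vehicle livers Slc27a5 was the most abundant member at 338 ± 43.8 FPKM (SD, n = 8), rank 111 among all rows, and its 8 samples stood clear of Cyp27a1 at 214 ± 22.3 FPKM. Cyp2c70 at 154 ± 22.5 FPKM, Baat at 139 ± 14.1 FPKM and Cyp8b1 at 102 ± 27.2 FPKM followed, each overlapping its neighbour, and the lowest Cyp27a1 sample also fell below the highest Cyp2c70 sample. Amacr at 53.7 ± 4.25 FPKM and Akr1d1 at 48.7 ± 8.89 FPKM lay within each other's spread, and Cyp7b1 at 32.1 ± 8.06 FPKM and Cyp7a1 at 17.2 ± 8.28 FPKM came after them with overlapping samples. Hsd3b7 was the least abundant member by far, at 3.6 ± 0.41 FPKM and rank 6738. Its level and rank are uncertain, since most of its sequence is shared with overlapping genes, as given below.

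**Figure D1:**
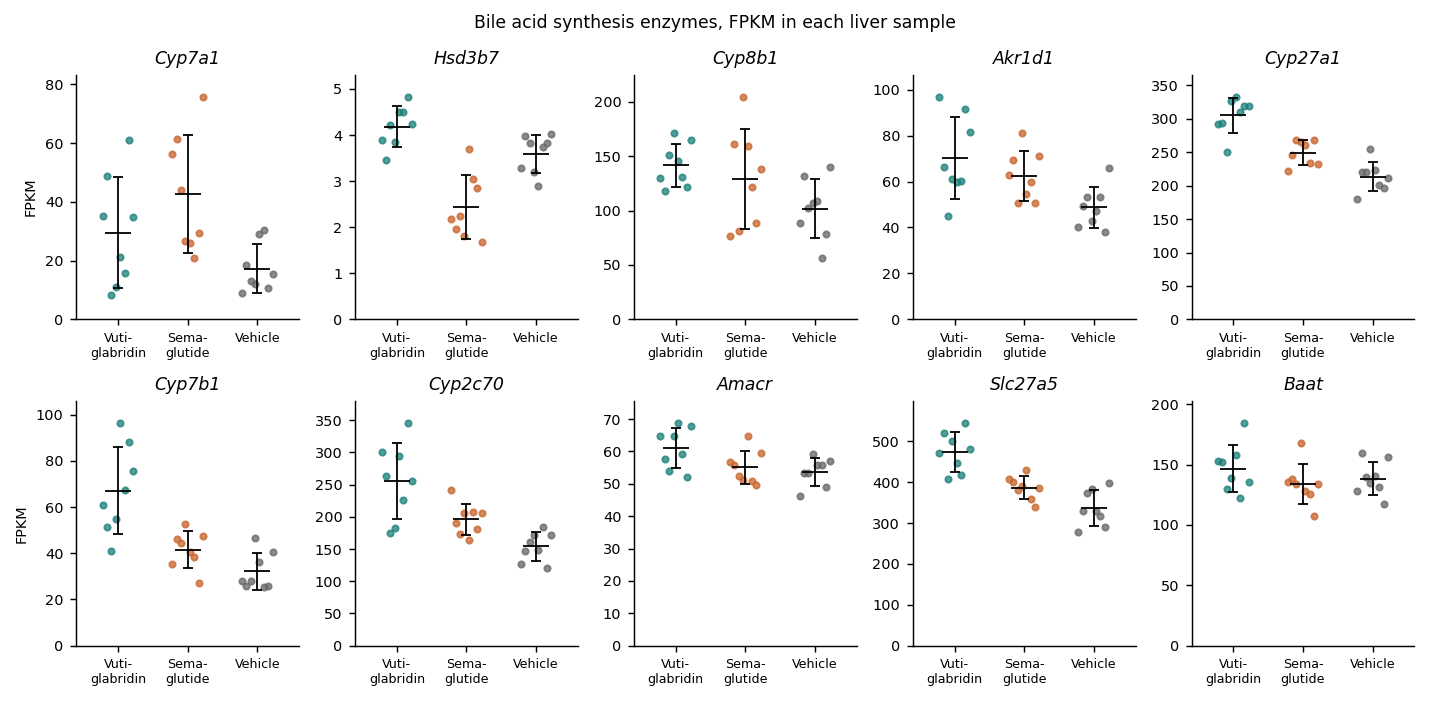
FPKM of each bile acid synthesis enzyme (vertical axes, from 0, one scale per gene) in the 8 vutiglabridin, 8 semaglutide and 8 vehicle samples, as points, with the group mean and SD in black. All 8 vutiglabridin samples lie above all vehicle samples for Slc27a5, Cyp7a1 spreads widely within every group, and Hsd3b7 is lowest in the semaglutide samples.

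Livers of both drug groups had more RNA of some of these enzymes than vehicle livers, and Cyp27a1 and Cyp2c70 were called with either drug. Cyp7b1, an alternative route enzyme, showed the largest difference with vutiglabridin, and Cyp7a1, the first enzyme of the classic route, the largest with semaglutide. Differences were tested with limma on log2(FPKM + 1) in one model of all 24 samples, adjusted by Benjamini-Hochberg over all 11562 genes, with 0.05 as the threshold, and log2 differences are given with their standard error. The 95% intervals are for a single gene and are not adjusted over genes. Between vutiglabridin and vehicle livers 5 of the 10 enzymes were higher (Cyp7b1, Cyp2c70, Cyp27a1, Akr1d1 and Slc27a5) and 0 were lower, where 6.53% of all genes tested were higher and 8.78% lower. Between semaglutide and vehicle livers 3 were higher (Cyp7a1, Cyp27a1 and Cyp2c70) and 1 was lower (Hsd3b7), where 14.3% of all genes were higher and 12.7% lower. Between the drugs 5 were higher with vutiglabridin than with semaglutide (Hsd3b7, Cyp7b1, Cyp2c70, Cyp27a1 and Slc27a5) and 0 were lower, where 11.9% of all genes were higher and 12.6% lower. The 2 drug comparisons share the vehicle samples, so their calls are not independent. Amacr, Cyp8b1 and Baat passed the test in none of the 3 comparisons. Samples of the first group lay wholly above those of the second for 1 member, Slc27a5, between vutiglabridin and vehicle livers (0.77% of all genes), for 0 between semaglutide and vehicle livers (4.09% of all genes) and for 0 between the drugs (1.13% of all genes).

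**Figure D2:**
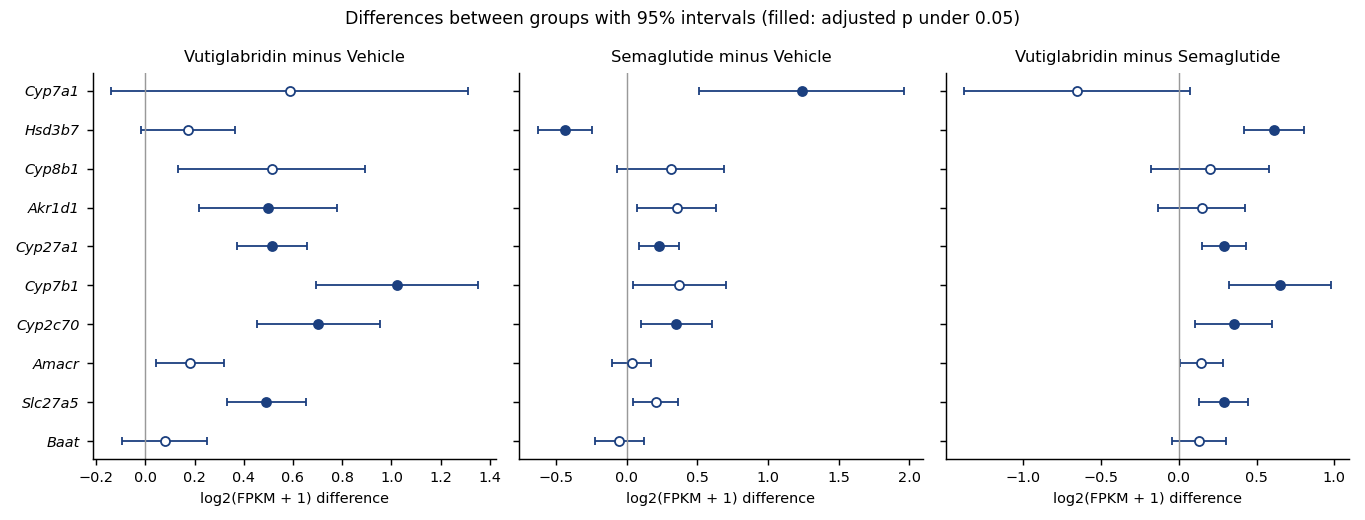
Difference in log2(FPKM + 1) (horizontal axes) for each enzyme in the 3 comparisons, as points with 95% confidence intervals from limma; filled points have an adjusted p under 0.05. Cyp7b1 differs by 1.02 between vutiglabridin and vehicle livers, Cyp7a1 by 1.24 between semaglutide and vehicle livers, and Hsd3b7 is the member below 0 in the semaglutide panel with a filled point.

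Cyp7a1 was higher in semaglutide livers and varied more between samples than any other member. In vutiglabridin livers it ran from 8.15 to 61.12 FPKM with a median of 28.1, in semaglutide livers from 20.89 to 75.77 FPKM with a median of 36.6, and in vehicle livers from 9.03 to 30.36 FPKM with a median of 14.1. All 8 semaglutide samples were above the vehicle mean, and 4 of them were above every vehicle sample. The semaglutide minus vehicle difference was 1.24 ± 0.35 on the log2 scale (95% interval 0.51 to 1.97, adjusted p = 0.0106), a 2.47-fold ratio of mean FPKM. With vutiglabridin 4 samples were above every vehicle sample and 1 was below them all, and the difference of 0.59 ± 0.35 did not pass (interval -0.14 to 1.31, adjusted p = 0.287). The difference between the drugs, -0.65 ± 0.35 for vutiglabridin minus semaglutide, did not pass either (interval -1.38 to 0.07, adjusted p = 0.179), so a difference between the drugs in Cyp7a1 was not shown. The coefficient of variation of Cyp7a1 was 63.9% in vutiglabridin, 47.2% in semaglutide and 48.0% in vehicle livers, and the highest vutiglabridin sample had 7.5 times the FPKM of the lowest. That highest sample was replicate 7, the shallowest library of all. The gene (chr4:6265612-6275633, minus strand, 6 exons) had at least 467 fragments in every library, as estimated from the steps between low FPKM values, so counting error is small beside this spread.

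Hsd3b7, the dehydrogenase that acts after ring hydroxylation by Cyp7a1 or Cyp7b1, was lower in semaglutide livers. It ran from 3.45 to 4.83 FPKM with a median of 4.23 in vutiglabridin livers, from 1.68 to 3.7 FPKM with a median of 2.215 in semaglutide livers, and from 2.9 to 4.02 FPKM with a median of 3.78 in vehicle livers. Of the 8 semaglutide samples 6 lay below every vehicle sample. The semaglutide minus vehicle difference was -0.44 ± 0.09 (adjusted p = 0.00105), and the vutiglabridin minus semaglutide difference was 0.61 ± 0.09 (adjusted p = 3.9e-05), with 7 of 8 vutiglabridin samples above every semaglutide sample. For vutiglabridin minus vehicle the difference of 0.17 ± 0.09 did not pass (adjusted p = 0.223). Hsd3b7 (chr7:127800604-127803802, plus strand) is uncertain as a single gene. GENCODE M21 places a longer coding gene, Gm49388, over it on the same strand and 9430064I24Rik on the opposite strand, neither has a row in the table, and 90% of the 101-base windows of its longest transcript occur in one of them, while 0 windows of the other 9 members occur in another gene's transcript. The 101 bases are the read length in the labels.

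Cyp8b1, the sterol hydroxylase that directs synthesis to cholic acid, was not called in any comparison. It ran from 118.16 to 170.94 FPKM with a median of 138 in vutiglabridin livers, from 76.22 to 204.64 FPKM with a median of 130 in semaglutide livers, and from 56.62 to 139.9 FPKM with a median of 105 in vehicle livers. All 8 vutiglabridin samples were above the vehicle mean, and 4 were above every vehicle sample. The vutiglabridin minus vehicle difference of 0.51 ± 0.18 missed the threshold (interval 0.13 to 0.89, adjusted p = 0.0593). It passed in a fit of these 2 groups alone (adjusted p = 0.0256), after removal of GC and length trends (adjusted p = 0.0413), and without vehicle replicate 2 (adjusted p = 0.0472), vehicle replicate 8 (0.0324), semaglutide replicate 1 (0.0455) or semaglutide replicate 4 (0.0423). It did not pass under TPM scaling (0.36, adjusted p = 0.14), quantile normalization (0.34, adjusted p = 0.205) or the exact Wilcoxon test (adjusted p = 0.0733). Nor did it pass with centring on hepatocyte markers, described below (0.20, adjusted p = 0.312). TPM scales each library as a whole, so it can change the distance of Cyp8b1 from the median of all genes only little. That distance was 0.49 under TPM, beside 0.50 with FPKM. With semaglutide the difference from vehicle was 0.31 ± 0.18 (adjusted p = 0.22). Spread was least with vutiglabridin, at a coefficient of variation of 13.9%, against 35.3% in semaglutide and 26.8% in vehicle livers; these spreads were not tested against each other. The gene has a single exon (chr9:121914356-121916305, minus strand).

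Akr1d1, the reductase of the sterol ring, was higher in vutiglabridin livers. It ran from 44.9 to 96.9 FPKM with a median of 63.7 in vutiglabridin livers, from 50.51 to 80.96 FPKM with a median of 61.2 in semaglutide livers, and from 38.1 to 65.74 FPKM with a median of 48.2 in vehicle livers. The groups overlapped, with 4 vutiglabridin samples above every vehicle sample. The difference of vutiglabridin minus vehicle was 0.50 ± 0.14 (adjusted p = 0.0137), and this call was lost after quantile normalization (adjusted p = 0.0562) and with the exact Wilcoxon test (adjusted p = 0.0733). Semaglutide minus vehicle was 0.35 ± 0.14, close to the threshold (adjusted p = 0.0548), and passed in a fit of these 2 groups alone (adjusted p = 0.0247) and without any 1 of 7 libraries (vehicle replicate 8, vutiglabridin replicates 1, 3 and 7, and semaglutide replicates 3, 5 and 7), with adjusted p between 0.0242 and 0.0483. The drugs differed by 0.15 ± 0.14 (interval -0.13 to 0.43, adjusted p = 0.458). The gene lies at chr6:37530173-37568815 on the plus strand.

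Both enzymes of the alternative route were higher in vutiglabridin livers than in either other group. Cyp7b1, the oxysterol hydroxylase, ran from 40.97 to 96.38 FPKM with a median of 64.3 in vutiglabridin livers, from 27.26 to 52.8 FPKM with a median of 42.5 in semaglutide livers, and from 25.31 to 46.64 FPKM with a median of 28.1 in vehicle livers. Of the 8 vutiglabridin samples 7 were above every vehicle sample and 6 above every semaglutide sample. Vutiglabridin minus vehicle was 1.02 ± 0.16 (interval 0.70 to 1.35, adjusted p = 0.000183), a 2.09-fold ratio of mean FPKM and the largest difference of any member in that comparison. Vutiglabridin minus semaglutide was 0.65 ± 0.16 (adjusted p = 0.00407). With semaglutide the difference from vehicle was 0.37 ± 0.16 and did not pass (adjusted p = 0.0847), but it passed without vehicle replicate 4 (0.45, adjusted p = 0.0362) or semaglutide replicate 7 (0.45, adjusted p = 0.0332). Cyp7b1 lies at chr3:18071950-18243338 on the minus strand.

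Cyp27a1, the mitochondrial hydroxylase that opens the alternative route and also oxidizes the side chain in the classic one, was called in all 3 comparisons. It ran from 250.51 to 332.94 FPKM with a median of 314 in vutiglabridin livers, from 221.51 to 268.3 FPKM with a median of 254 in semaglutide livers, and from 180.59 to 254.74 FPKM with a median of 216 in vehicle livers. The group medians were thus ordered vutiglabridin, semaglutide, vehicle, and 7 of 8 vutiglabridin samples were above every vehicle sample. Vutiglabridin minus vehicle was 0.51 ± 0.07 (adjusted p = 3.6e-05) and semaglutide minus vehicle was 0.23 ± 0.07 (adjusted p = 0.0161). Vutiglabridin minus semaglutide was 0.29 ± 0.07 (adjusted p = 0.00327), a call lost after quantile normalization (0.10, adjusted p = 0.279). The gene has 9 exons at chr1:74713574-74737892 on the plus strand.

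Cyp2c70, the rodent enzyme that makes muricholic acids, showed the same order. It ran from 175.26 to 345.64 FPKM with a median of 260 in vutiglabridin livers, from 164.39 to 241.61 FPKM with a median of 198 in semaglutide livers, and from 120.47 to 184.44 FPKM with a median of 155 in vehicle livers. Vutiglabridin minus vehicle was 0.70 ± 0.12 (adjusted p = 0.000378), with 6 of 8 vutiglabridin samples above every vehicle sample. Semaglutide minus vehicle was 0.35 ± 0.12 (adjusted p = 0.0324). That call was lost under TPM scaling (adjusted p = 0.0553) and without any 1 of 7 libraries (vehicle replicates 1, 2 and 7, and semaglutide replicates 1, 4, 6 and 8), with adjusted p between 0.0521 and 0.0727. Vutiglabridin minus semaglutide was 0.35 ± 0.12 (adjusted p = 0.0347). That call too was lost under TPM scaling (0.25, adjusted p = 0.115), quantile normalization (0.18, adjusted p = 0.279), the fit of these 2 groups alone (adjusted p = 0.0556) and the exact Wilcoxon test (adjusted p = 0.124). It was also lost without any 1 of 8 libraries (vutiglabridin replicates 1, 2, 5 and 7, and semaglutide replicates 2, 3, 5 and 7), with adjusted p between 0.055 and 0.0769. Cyp2c70 lies at chr19:40153353-40187333 on the minus strand, within a family of related genes.

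Of the side chain and conjugation enzymes, Slc27a5 was higher with vutiglabridin and the others were not called. Slc27a5, which joins bile acids to coenzyme A, ran from 407.06 to 544.41 FPKM with a median of 476 in vutiglabridin livers, from 340.39 to 430.66 FPKM with a median of 387 in semaglutide livers, and from 277.37 to 396.87 FPKM with a median of 330 in vehicle livers. The vutiglabridin and vehicle samples did not overlap. Vutiglabridin minus vehicle was 0.49 ± 0.08 (adjusted p = 0.000191). Vutiglabridin minus semaglutide was 0.29 ± 0.08 (adjusted p = 0.00768), a call lost after quantile normalization (0.15, adjusted p = 0.054) and after removal of GC and length trends (0.20, adjusted p = 0.0593). Semaglutide minus vehicle was 0.20 ± 0.08 and just missed the threshold (adjusted p = 0.0524), while all 8 semaglutide samples were above the vehicle mean. It passed with GC and length trends removed (0.30, adjusted p = 0.00498) and without any 1 of 7 libraries (vehicle replicates 3, 4 and 8, vutiglabridin replicates 3 and 7, and semaglutide replicates 6 and 7), with adjusted p between 0.0239 and 0.0496. The gene has 10 exons at chr7:12988346-12998192 on the minus strand.

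Baat, which conjugates the activated bile acid with taurine or glycine, was called in no comparison. It averaged 147 ± 19.5 FPKM in vutiglabridin, 134 ± 16.8 FPKM in semaglutide and 139 ± 14.1 FPKM in vehicle livers (SD, n = 8 each). The vutiglabridin minus vehicle difference was 0.08 ± 0.08 (interval -0.09 to 0.25, adjusted p = 0.585), and the sign of this small difference turned under TPM scaling (-0.08) and quantile normalization (-0.09). Under TPM all genes shifted, and Baat stood 0.05 above their median, beside 0.07 with FPKM, a distance that such scaling can change only little. For Baat, semaglutide minus vehicle was -0.05 ± 0.08 (interval -0.22 to 0.12, adjusted p = 0.689). Amacr, the racemase that prepares the side chain for shortening, averaged 61.1 ± 6.25 FPKM in vutiglabridin, 55.1 ± 5.14 FPKM in semaglutide and 53.7 ± 4.25 FPKM in vehicle livers. Its vutiglabridin minus vehicle difference of 0.18 ± 0.07 missed the threshold (adjusted p = 0.0689) and passed without vutiglabridin replicate 3 (adjusted p = 0.0384) or 7 (adjusted p = 0.0365). This difference was 0.03 under TPM scaling (adjusted p = 0.791) and 0.06 after quantile normalization (adjusted p = 0.543). Under TPM it stood 0.15 above the median of all genes, beside 0.17 with FPKM, again a distance that this scaling can change only little. The exact Wilcoxon test gave an adjusted p of 0.134. Semaglutide minus vehicle was 0.04 ± 0.07 for Amacr (adjusted p = 0.737), and vutiglabridin minus semaglutide was 0.14 ± 0.07 (adjusted p = 0.116), which passed without semaglutide replicate 5 (0.18, adjusted p = 0.0454). The latter was 0.04 under TPM scaling (adjusted p = 0.639) and 0.03 after quantile normalization (adjusted p = 0.754). Baat lies at chr4:49489422-49506557 on the minus strand and Amacr at chr15:10981756-10996626 on the plus strand.

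Ratios of 2 enzymes within each library are given as a difference of their log2(FPKM + 1), without a test. Cyp7b1 relative to Cyp7a1, the hydroxylases of the alternative and the classic route, had a median of 1.56 in vutiglabridin livers (0.08 to 2.23), -0.05 in semaglutide livers (-0.66 to 0.96) and 1.14 in vehicle livers (-0.25 to 1.88). The semaglutide samples thus tended to carry about as much Cyp7a1 as Cyp7b1, while the other groups carried more Cyp7b1, with overlap between all groups. Cyp8b1 relative to Cyp7a1 had a median of 2.46 in vutiglabridin livers (0.98 to 4.06), 1.47 in semaglutide livers (0.43 to 2.89) and 2.84 in vehicle livers (0.88 to 3.16). Cyp7b1 relative to Cyp27a1 had a median of -2.21 in vutiglabridin livers (-2.58 to -1.78), -2.57 in semaglutide livers (-3.25 to -2.26) and -2.76 in vehicle livers (-3.03 to -2.36). Cyp7b1 was thus the scarcer of that pair in every sample.

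**Figure D3:**
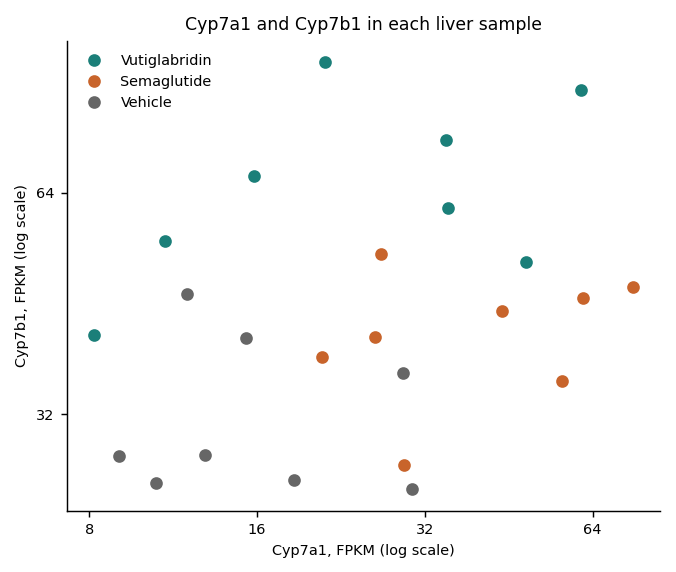
Cyp7b1 (vertical axis) against Cyp7a1 (horizontal axis) in FPKM on log scales, 1 point per liver sample, coloured by group. The vutiglabridin samples lie high on the Cyp7b1 axis, with a lowest value of 40.97 FPKM, and the semaglutide samples lie to the right of most vehicle samples on the Cyp7a1 axis.

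Within groups, several enzymes rose and fell together from liver to liver. For each of the 45 pairs, deviations from the group means of log2(FPKM + 1) were correlated over the 24 samples, with p from 100000 permutations of samples within groups, adjusted over the 45 pairs. Pearson r was positive for 36 pairs and passed for 9, all of them positive; 7 of the 9 also passed with Spearman's rho. Akr1d1 and Cyp2c70 had the highest r, at 0.72 (rho 0.65, permutation adjusted p = 0.0153, r of 0.62 without the 2 samples farthest out on Akr1d1), with 0.78 within vutiglabridin, 0.55 within semaglutide and 0.73 within vehicle livers. Cyp7a1 and Cyp2c70 had r of 0.68 (rho 0.59, permutation adjusted p = 0.0232, 0.53 without 2 samples), with 0.88 within vutiglabridin, 0.29 within semaglutide and 0.52 within vehicle livers. Cyp7a1 and Akr1d1 had r of 0.60 (rho 0.59, permutation adjusted p = 0.0398, 0.44 without 2 samples), with 0.82 within vutiglabridin, 0.27 within semaglutide and 0.45 within vehicle livers. Akr1d1 and Baat had r of 0.68 (rho 0.66, permutation adjusted p = 0.0153, 0.69 without 2 samples), with 0.59 within vutiglabridin, 0.79 within semaglutide and 0.73 within vehicle livers. These 4 pairs also passed under TPM scaling, and the other 5 did not (Slc27a5 with Baat, Cyp2c70 with Baat, Cyp27a1 with Cyp7b1, Akr1d1 with Slc27a5, and Cyp7b1 with Baat, with r between 0.44 and 0.53 there). Cyp8b1 passed with no other member, and with Cyp7a1 its r was -0.25 (rho -0.17, permutation adjusted p = 0.336, -0.22 without 2 samples). Within vutiglabridin, semaglutide and vehicle livers that r was -0.63, -0.19 and -0.16. All values of a library share its scaling, and a batch other than the groups is not given in the labels, so values within batches could not be computed.

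**Figure D4:**
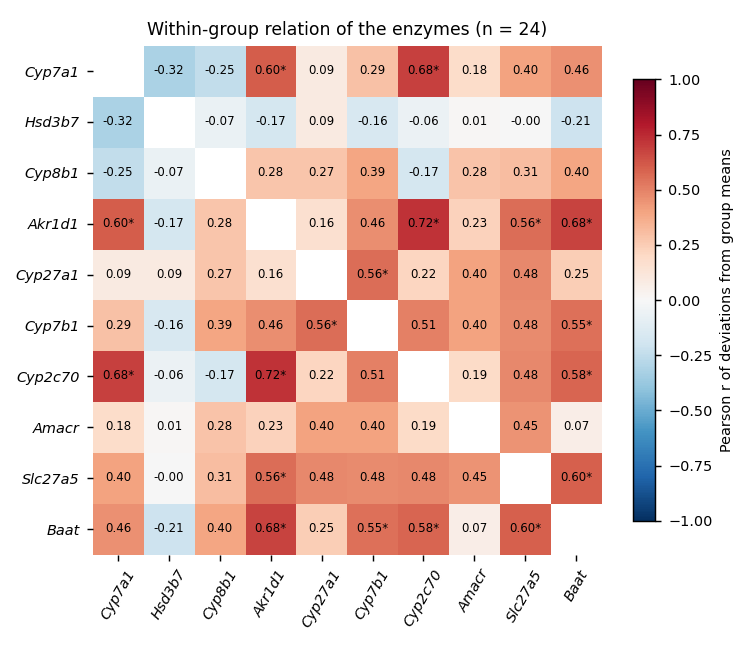
Pearson r between each pair of enzymes, from deviations from the group means over 24 samples (colour scale from -1 to 1); asterisks mark a permutation adjusted p under 0.05 over the 45 pairs. The asterisks join Akr1d1 with Cyp7a1, Cyp2c70, Baat and Slc27a5, Cyp2c70 with Cyp7a1 and Baat, and Slc27a5 with Baat. They also join Cyp7b1 with Cyp27a1 and with Baat, while the Cyp8b1, Hsd3b7 and Amacr rows have none.

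The genes most like the 3 hydroxylases across these livers, among the other 11561 tested genes and by the same within-group r over 24 samples, are given as a description. For Cyp7a1 they were Lpgat1 (r = 0.88), an acyltransferase gene, Ccdc25 (0.83) and Plpp3 (0.83), a lipid phosphatase gene. For Cyp8b1 they were Hsd17b10 (0.74), Rarres1 (0.74) and Them7 (0.72). For Cyp7b1 they were Pard3b (0.79), Mup5 (0.79) and Mup11 (0.78). Pard3b averaged only 0.63 FPKM in vutiglabridin, 0.68 FPKM in semaglutide and 0.58 FPKM in vehicle livers, close to the filter of 0.5 FPKM. For some of these genes r was uneven between groups. Lpgat1 had 0.96 within vutiglabridin, 0.93 within semaglutide and 0.56 within vehicle livers, and Mup5 had 0.94, 0.48 and 0.89. Mup5 and Mup11 belong to the major urinary proteins, a family of related genes. Reads can be shared within it, which was not measured for these genes, so they are uncertain as single genes. Cyp7b1 is itself a gene with male-biased expression in mouse liver. Of 15 other male-biased liver genes, 5 were higher and 0 lower in vutiglabridin than vehicle livers, 0 were higher and 4 lower in semaglutide than vehicle livers, and 9 were higher and 0 lower with vutiglabridin than semaglutide. Shares of all genes tested were 6.53% higher and 8.78% lower, 14.3% and 12.7%, and 11.9% and 12.6% in these comparisons. Hsd3b5, a male-specific steroid enzyme, averaged 5.09 ± 4.06 FPKM in vutiglabridin, 0.569 ± 0.607 FPKM in semaglutide and 0.451 ± 0.371 FPKM in vehicle livers, with a vutiglabridin minus vehicle difference of 1.80 ± 0.32 (adjusted p = 0.00052).

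Enzymes that supply or assist these members were also called in part. Of 16 other bile acid enzymes and partners 14 were tested, and 4 were higher and 0 lower in vutiglabridin than vehicle livers, with a list median of 0.20 beside 0.01 over all genes. In semaglutide livers 6 were higher and 1 lower than in vehicle livers, with a list median of 0.10 beside -0.01. Over all genes tested, 6.53% were higher and 8.78% lower with vutiglabridin, and 14.3% and 12.7% with semaglutide. Por, the electron donor of the microsomal hydroxylases, averaged 171 ± 37.8 FPKM in vutiglabridin, 170 ± 36.2 FPKM in semaglutide and 113 ± 25.3 FPKM in vehicle livers, and was higher with vutiglabridin (0.60 ± 0.17, adjusted p = 0.0148) and with semaglutide (0.60 ± 0.17, adjusted p = 0.00886). Fdx1, which carries electrons to Cyp27a1 in mitochondria, averaged 35.4 ± 7.59 FPKM in vutiglabridin and 25.2 ± 2.89 FPKM in semaglutide livers (0.45 ± 0.11, adjusted p = 0.00408). Cyp39a1, another oxysterol hydroxylase, was higher than in vehicle livers with vutiglabridin (0.46 ± 0.13, adjusted p = 0.0193) and with semaglutide (0.61 ± 0.13, adjusted p = 0.00131). Of 24 genes of cholesterol synthesis and uptake, which provide the substrate, 9 were higher with vutiglabridin and 7 with semaglutide than in vehicle livers, and 0 were lower in either; Ebp, a sterol isomerase, was higher by 0.49 ± 0.08 with vutiglabridin (adjusted p = 0.000266).

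Regulators known to act on the enzymes were measured as well. Nr0b2, the repressor SHP, averaged 42.1 ± 17.2 FPKM in vutiglabridin, 27.5 ± 9.86 FPKM in semaglutide and 50.6 ± 18.8 FPKM in vehicle livers; it fell with semaglutide (-0.84 ± 0.25, adjusted p = 0.0154), while vutiglabridin minus vehicle was -0.29 ± 0.25 (adjusted p = 0.496). Nr1h4, the receptor FXR, averaged 58.0 ± 9.95 FPKM in vutiglabridin, 55.0 ± 9.99 FPKM in semaglutide and 50.2 ± 4.67 FPKM in vehicle livers and passed in neither comparison with vehicle (adjusted p = 0.234 for vutiglabridin and 0.441 for semaglutide). Klb averaged 6.67 ± 1.89 FPKM in vutiglabridin, 8.71 ± 1.68 FPKM in semaglutide and 4.46 ± 0.792 FPKM in vehicle livers, and was higher with vutiglabridin (0.47 ± 0.13, adjusted p = 0.0157) and with semaglutide (0.83 ± 0.13, adjusted p = 4.2e-05). Its receptor partner Fgfr4 was higher with vutiglabridin (0.28 ± 0.08, adjusted p = 0.0187), and semaglutide minus vehicle was 0.14 ± 0.08 (adjusted p = 0.194). Nr5a2, whose motif stands in the Cyp8b1 line above, was higher with vutiglabridin (0.28 ± 0.07, adjusted p = 0.0118) and with semaglutide (0.40 ± 0.07, adjusted p = 0.000253). Hnf4a, whose letters stand in the Cyp8b1, Cyp2c70 and Hsd3b7 lines, was higher with vutiglabridin (0.33 ± 0.09, adjusted p = 0.0164), and semaglutide minus vehicle was 0.11 ± 0.09 (adjusted p = 0.4). Of those enzymes only Cyp2c70 was called with vutiglabridin against vehicle, while Cyp27a1 and Akr1d1 were called without an HNF4A match in their windows. Windows were at hand for only 5 members, and a match or its absence in a short window does not show whether a factor acts. Action of Hnf4a or Nr5a2 on these enzymes was not tested. In all, 6 of 19 tested regulators were higher and 0 lower with vutiglabridin, and 6 were higher and 1 lower with semaglutide, each against vehicle. The shares of all genes were 6.53% higher and 8.78% lower with vutiglabridin, and 14.3% and 12.7% with semaglutide.

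Transporters that return bile acids to hepatocytes and release them were also measured. Slc10a1, the main uptake carrier, averaged 314 ± 53.1 FPKM in vutiglabridin, 255 ± 51.3 FPKM in semaglutide and 151 ± 29.0 FPKM in vehicle livers, and rose with vutiglabridin (1.05 ± 0.13, adjusted p = 2.4e-05) and with semaglutide (0.74 ± 0.13, adjusted p = 0.000139). Slc51b, a subunit of the exporter to the blood, averaged 0.555 ± 0.358 FPKM in vutiglabridin, 0.83 ± 0.391 FPKM in semaglutide and 2.48 ± 0.743 FPKM in vehicle livers. It fell with vutiglabridin (-1.17 ± 0.15, adjusted p = 2.9e-05) and with semaglutide (-0.93 ± 0.15, adjusted p = 6.5e-05). Of 14 tested transporters, 3 were higher and 2 lower with vutiglabridin than vehicle, and 4 were higher and 1 lower with semaglutide. Of all genes tested, 6.53% were higher and 8.78% lower with vutiglabridin, and 14.3% and 12.7% with semaglutide. Of 15 tested clock genes, which set the daily rhythm of Cyp7a1, 0 passed with vutiglabridin, and 3 were higher and 2 lower with semaglutide, each against vehicle, near the shares of all genes in the semaglutide comparison (14.3% higher and 12.7% lower). Among the 3 were Nr1d2 (0.53 ± 0.12, adjusted p = 0.00189) and Hlf (0.31 ± 0.10, adjusted p = 0.0258).

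Marker RNA of several liver cell types also differed between the groups. The samples carried the hepatocyte markers of liver: the 14 markers summed to 50928 to 64946 FPKM in vutiglabridin, 49832 to 62538 FPKM in semaglutide and 44158 to 54396 FPKM in vehicle livers. Of these 14 markers, none of which is a member, 5 were higher with vutiglabridin and 7 with semaglutide than with vehicle, and 0 were lower in either. For this and the following lists, the shares of all genes were 6.53% higher and 8.78% lower with vutiglabridin. With semaglutide they were 14.3% and 12.7%. Macrophage markers were lower for 8 of 12 with vutiglabridin and 5 of 12 with semaglutide, with summed levels of 158 to 328 FPKM in vutiglabridin, 167 to 316 FPKM in semaglutide and 248 to 587 FPKM in vehicle livers. Stellate cell and fibroblast markers were lower for 5 of 10 with each drug, with summed levels of 89.0 to 153 FPKM in vutiglabridin, 95.7 to 154 FPKM in semaglutide and 149 to 225 FPKM in vehicle livers. Cholangiocyte markers were lower for 2 of 7 tested with vutiglabridin and 0 with semaglutide, endothelial markers were higher for 1 of 8 with vutiglabridin and 2 with semaglutide, T and NK cell markers were lower for 4 of 5 tested with vutiglabridin and 0 with semaglutide, and B and plasma cell markers were lower for 1 of 3 tested with vutiglabridin and 0 with semaglutide. No marker of these lists had a median of 0 in any group. In bulk tissue, more hepatocytes in a sample and more RNA of a gene per hepatocyte cannot be told apart.

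Each library was also centred on the mean log2 level of its 14 hepatocyte markers, an alternative chosen after the data were seen. Some of these markers were themselves called with each drug. The centring therefore cannot tell more hepatocytes from more RNA per hepatocyte, and is given as a description. It moved the median of all genes to -0.30 between vutiglabridin and vehicle livers and to -0.22 between semaglutide and vehicle livers. Relative to the hepatocyte markers, Cyp7b1 (0.71, adjusted p = 0.000365), Cyp2c70 (0.39, adjusted p = 0.00139), Cyp27a1 (0.20, adjusted p = 0.0132) and Slc27a5 (0.18, adjusted p = 0.0106) remained higher in vutiglabridin than vehicle livers, and Akr1d1 (0.19, adjusted p = 0.131) did not pass. Cyp7a1 remained higher in semaglutide than vehicle livers (1.03, adjusted p = 0.0115), while Cyp27a1 (0.02, adjusted p = 0.852) and Cyp2c70 (0.14, adjusted p = 0.214) did not pass. Centring shifts all genes alike, so it cannot change the distance of an enzyme from the median of all genes. With semaglutide that distance was 0.24 and 0.37 for these 2 enzymes, as it was before centring. Hsd3b7 remained lower with semaglutide (-0.65, adjusted p = 9.0e-05). Between the drugs Hsd3b7, Cyp7b1 and Slc27a5 remained higher with vutiglabridin, and Cyp27a1 (0.19, adjusted p = 0.062) and Cyp2c70 (0.25, adjusted p = 0.0674) did not pass. Baat, beside these markers, was lower with vutiglabridin (-0.23, adjusted p = 0.0107) and with semaglutide (-0.26, adjusted p = 0.00752), and Amacr was lower with semaglutide (-0.17, adjusted p = 0.0369). These values lie 0.07, -0.04 and 0.05 from the median of all genes, the same distances as before centring.

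Library totals differed as well, since FPKM values sum to 368614 ± 14580 in vutiglabridin, 343428 ± 14751 in semaglutide and 330352 ± 14299 in vehicle libraries (SD, n = 8 each). Scaling every library to the same total (TPM) moved the median of all genes by more than 0.1 in 1 comparison, to -0.13 between vutiglabridin and vehicle livers, with 233 genes higher and 2731 lower in place of 755 and 1015. Under TPM the 5 members called with vutiglabridin kept their calls, at 0.88 for Cyp7b1, 0.55 for Cyp2c70, 0.36 for Cyp27a1, 0.35 for Akr1d1 (adjusted p = 0.0473) and 0.33 for Slc27a5, which are 1.01, 0.68, 0.49, 0.48 and 0.46 above the median of all genes. TPM scales each library as a whole, so these distances from the median could differ only little from those with FPKM. Cyp7a1 with semaglutide was 1.22 under TPM (adjusted p = 0.0135). The steps between low FPKM values imply 5.97 to 15.24 M (mega) fragments in vutiglabridin, 9.32 to 12.4 M in semaglutide and 11.97 to 19.82 M in vehicle libraries, so the vutiglabridin values include the shallowest library (replicate 7). That library also held the highest vutiglabridin value of Cyp7a1, Hsd3b7, Cyp2c70, Slc27a5 and Baat. All 114344 semaglutide values were written with a trailing space in the table and 0 values of the other groups were, so a difference in how they were processed and the drug cannot be told apart in comparisons with semaglutide.

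**Figure D5:**
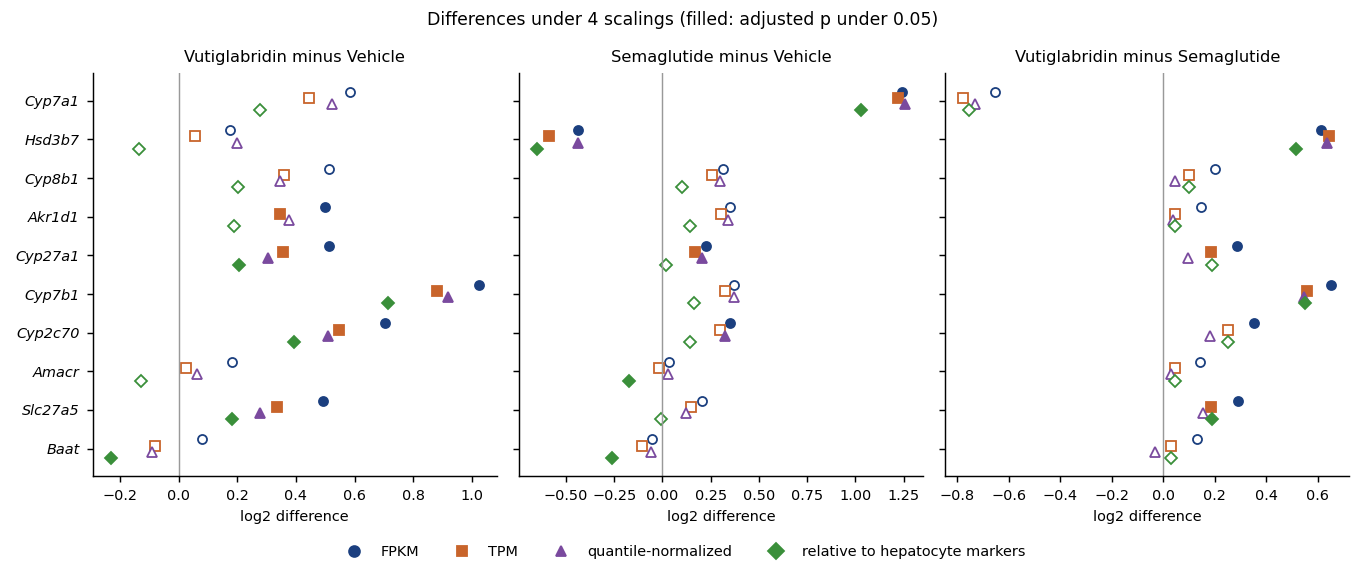
Log2 difference (horizontal axes) of each enzyme in the 3 comparisons under 4 scalings: FPKM as deposited, TPM, quantile normalization and centring on hepatocyte markers; filled symbols have a limma adjusted p under 0.05. Cyp7b1 stays filled at 0.71 to 1.02 between vutiglabridin and vehicle livers and Cyp7a1 at 1.03 to 1.26 between semaglutide and vehicle livers, while Baat, Amacr, Hsd3b7 and Slc27a5 each change sign under at least 1 scaling in some comparison.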

How the data were processed

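The table deposited by the authors holds 1 FPKM value per gene and sample. The submitters' processing notes list HISAT2, StringTie and DESeq2 without versions or roles, and neither the build nor a gene filter is given in the sources used here. Per the labels' protocols, libraries were stranded mRNA libraries read as 101-base pairs. All 14293 rows matched GENCODE M21 (GRCm38) by identifier and symbol. From the FPKM, log2(FPKM + 1) was computed, and limma 3.58.1 in R 4.3.3 modelled 11562 genes over the 3 groups with a mean trend and 2-sided tests, after tests on simulated data. Alternatives were a pseudocount of 0.1, no filter, a mean of at least 1 FPKM, TPM scaling, quantile normalization, 2 groups only, the exact Wilcoxon test, a replicate block, removal of GC and length trends, and each sample left out. Pairs of libraries in a group had Spearman's rho of at most 0.991, with at most 2.37% identical values, so none was counted as a copy. The enzymes and gene lists were chosen with earlier results of these data known. From each other list only genes among the 3 with the lowest p per comparison were named, and from the regulators Nr1h4, Nr0b2, Fgfr4, Klb, Nr5a2 and Hnf4a in addition.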

Additional observations from a re-analysis of the deposited data

How the results depend on the processing

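Among recomputed differences of single enzymes, 973 kept their direction and side of the threshold, 34 came to pass, 34 no longer passed and 9 changed sign. The sign changes were Baat between vutiglabridin and vehicle under TPM (-0.0792), quantile normalization (-0.0923) and hepatocyte centring (-0.23), Baat between the drugs under quantile normalization (-0.0305), and Amacr between semaglutide and vehicle under TPM (-0.0194) and hepatocyte centring (-0.17). Centring also turned Hsd3b7 (-0.14) and Amacr (-0.13) between vutiglabridin and vehicle, and Slc27a5 (-0.00643) between semaglutide and vehicle. These stood 0.16, 0.17 and 0.22 above the median of all genes, distances that centring cannot change. Between the drugs, 2 enzymes were called higher after quantile normalization and 3 after centring, in place of 5. Centring left 1 enzyme higher and 3 lower between semaglutide and vehicle, and 1 lower between vutiglabridin and vehicle. Genes called between vutiglabridin and vehicle numbered 2964 under TPM and 9067 under centring, in place of 1770, and between semaglutide and vehicle 6411 under centring, in place of 3124. Both TPM and centring shift all genes of a library, and under TPM the median of all genes moved to -0.13 between vutiglabridin and vehicle. How much of each change in number came from these shifts was not tested, nor was the cause of the other changes. The share of calls that were higher was 7.86% under TPM and 1.12% under centring, against 42.7%, between vutiglabridin and vehicle. It was 36.2% and 6.99%, against 52.8%, between semaglutide and vehicle, and 20.8% and 16.8%, against 48.5%, between the drugs. With each library left out in turn, 2 to 6 enzymes were higher between semaglutide and vehicle, with 5 or 6 without vehicle replicate 4 or 8, vutiglabridin replicate 3 or 7, or semaglutide replicate 7. The replicate numbers share no stated source, and same-numbered samples did not deviate together throughout (r from -0.25 to 0.29). With a replicate block, 7 enzymes were higher between vutiglabridin and vehicle, 2 between semaglutide and vehicle and 4 between the drugs, and 1 was lower, between semaglutide and vehicle. The block let Cyp8b1 (adjusted p = 0.0249) and Amacr (0.0362) pass between vutiglabridin and vehicle, and Cyp2c70 did not pass between semaglutide and vehicle (0.0545) or between the drugs (0.0584); it changed no other enzyme's call. With the block and GC and length trends removed, Cyp8b1 passed between vutiglabridin and vehicle (0.0164) and between semaglutide and vehicle (0.0355). Depth limits Hsd3b7 most, at 47 implied fragments in its lowest library.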
